A study of Mus musculus with 24 samples.

Results

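A set of 8 genes whose products act beside or after the TET enzymes were followed here across 5 genotypes of mouse embryonic stem cells (ESCs) and 2 days. They are Ogt, Hcfc1 and Sin3a, which encode proteins that bind TET enzymes, Cxxc4, which encodes a CpG-binding protein, and Tdg, Smug1, Neil1 and Apex1, which encode enzymes of base excision repair. The members were listed by symbol, with earlier results of these data known. All 8 of 8 symbols were found among the 22926 symbols of the count tables, with the count of a symbol taken from its first line. Over 6 days without leukemia inhibitory factor (LIF), Cxxc4 rose and Apex1 fell in every genotype. At day 6, Tet2-/- cells held more Ogt, Hcfc1 and Apex1 RNA and less Smug1 RNA than wild-type (WT) cells. In that comparison 28.5% of all tested genes passed edgeR's test. No member passed it in Tet1-/-, DKO or TKO cells on that day, where 0% of all genes passed.

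RNA-seq libraries were made from 24 cultures, 12 at day 0 (D0, in medium with LIF) and 12 at day 6 (D6, after 6 days in the same medium without LIF). WT and Tet1-/- had 3 clones a day. Tet2-/- cells, the double knockout Tet1-/-:Tet2-/- (DKO) and the triple knockout Tet1-/-:Tet2-/-:Tet3-/- (TKO) had 2 clones a day. The cells are a 129/SVj line and grew on gelatin without feeder cells, and all genotypes descend from 1 parental clone with eGFP knocked in at the Pou5f1 locus. Knockouts carry small insertions or deletions made with Cas9, each library is 1 clone, and 11 clones, named here by genotype and number (DKO_5.12), were sequenced on both days. Values of single libraries are listed in 1 clone order on both days, O4.1, O4.2 and O4.13 in WT, 2.1, 2.3 (2.2 at D6) and 2.4 in Tet1-/-, Tet2_KO_3.10 and Tet2_KO_3.11, DKO_5.11 and DKO_5.12, and TKO_8.4 and TKO_8.12. The p-values thus measure the spread between clones of 1 parental line.

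Libraries held 18400463 to 37290208 counts, and levels are given in CPM (counts per 1000000 counts of the library), with library sizes scaled by the trimmed mean of M-values (TMM). Small edits need not remove the RNA of the edited gene. At D0, Tet2 RNA was 87.9 to 94.0 CPM in WT and lower in the Tet2-edited clones, at 42.5 and 8.16 CPM in TKO, 20.9 and 23.2 in Tet2-/-, and 55.7 and 22.3 in DKO. At D6 it was 12.3 to 16.0 CPM in WT and no lower in Tet2-/-, at 15.9 and 16.6 CPM, while TKO held 16.2 and 10.5 and DKO 9.99 and 5.73 CPM. Tet1 RNA did not separate the Tet1-edited clones from WT at D0. It was 220 to 431 CPM in WT, 93.4 to 358 in Tet1-/-, 373 and 231 in DKO, and 568 and 41.7 CPM in TKO. In Tet2-/-, Tet1 RNA was above every WT library on both days, with 457 and 451 CPM at D0. At D6 it was 319 and 286 CPM in Tet2-/- and 108 to 125 CPM in WT. Tet3 RNA was 4.43 and 2.84 CPM in TKO and 5.05 to 7.94 in WT at D0. The cell state moved with the day: the summed level of 12 naive pluripotency markers was 4163 to 4934 CPM at D0 and 580 to 1569 CPM at D6, and 11 of 12 of these genes fell in WT. The RNA is from whole cultures, in which fewer cells of a type and less RNA per cell cannot be told apart.

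TET enzymes oxidise the methyl group of methylated cytosine. Thymine DNA glycosylase (Tdg) cuts the most oxidised bases out of the DNA, and Apex1, the main apurinic/apyrimidinic endonuclease, then nicks the strand so that polymerase and ligase can put back an unmethylated cytosine. Ogt, the enzyme that adds O-linked N-acetylglucosamine (O-GlcNAc) to nuclear proteins, binds TET enzymes and also modifies and cleaves HCF1, the product of Hcfc1 and a docking protein of histone methyltransferases, while Sin3a is the scaffold of a histone deacetylase complex. Cxxc4 (also called Idax) is related to a CXXC domain that an ancestral Tet2 gene is thought to have lost and that became a gene of its own. Smug1 removes uracil and hydroxymethyluracil from DNA, and Neil1 removes oxidised bases.

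On mm9, with GENCODE vM1 gene models, the members lie on 6 chromosomes. Ogt (chrX:98835399-98879690, plus strand) and Hcfc1 (chrX:71188131-71211696, minus strand) are X-linked. Sin3a (chr9:56919847-56976173, plus strand) and Neil1 (chr9:56990607-56995929, minus strand) are separated by 14.4 kb. Cxxc4 (chr3:133899784-133925117, plus strand) lies 692.4 kb from Tet2, the gene edited in Tet2-/-, DKO and TKO cells. Tdg (chr10:82092573-82113544, plus strand), Smug1 (chr15:102983738-102988383, minus strand) and Apex1 (chr14:51544643-51546814, plus strand) are the only members on their chromosomes.

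Promoter sequences were found for all 8 members in RefSeq (build GRCm38.p6), 10 promoters in all. In the 250 bases before the start they held 12 to 28 CpG sites, while the median was 6 over 32851 mouse promoters and 14 over the 14620 promoters of genes tested here, with an upper quartile of 22. CpG is the site that DNA methyltransferases, TET enzymes and CXXC domains act on. The promoters of Apex1, which fell most in WT, Cxxc4, which rose most, and Ogt, whose change differed from WT in Tet2-/- and TKO, are shown 5′ to 3′ on the strand of the gene, with every CpG in capitals. The Apex1 window (chr14:50924699-50924948, plus strand) holds 28 CpG sites, the Cxxc4 window (chr3:134236245-134236494, plus strand) 20 and the first Ogt window (chrX:101639801-101640050, plus strand) 15.
Apex1: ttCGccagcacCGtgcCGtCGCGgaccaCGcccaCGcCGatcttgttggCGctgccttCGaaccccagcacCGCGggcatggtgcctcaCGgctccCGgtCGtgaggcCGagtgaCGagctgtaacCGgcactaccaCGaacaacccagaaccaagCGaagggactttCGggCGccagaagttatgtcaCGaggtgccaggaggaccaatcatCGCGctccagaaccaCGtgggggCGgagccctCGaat
Cxxc4: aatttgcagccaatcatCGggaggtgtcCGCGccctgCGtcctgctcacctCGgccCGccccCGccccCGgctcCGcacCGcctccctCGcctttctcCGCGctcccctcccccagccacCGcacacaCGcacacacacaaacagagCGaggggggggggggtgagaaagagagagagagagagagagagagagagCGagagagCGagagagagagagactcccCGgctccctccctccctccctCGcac
Ogt: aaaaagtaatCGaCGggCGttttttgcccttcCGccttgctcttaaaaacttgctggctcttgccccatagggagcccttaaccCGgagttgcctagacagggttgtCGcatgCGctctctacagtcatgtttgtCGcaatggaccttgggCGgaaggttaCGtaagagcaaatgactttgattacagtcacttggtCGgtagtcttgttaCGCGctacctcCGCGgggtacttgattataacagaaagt
The letters CACGTG, read on both strands, occur in the windows of 2 members, Apex1 and Tdg, and in 6.02% of all mouse promoters of this length. TGACGTCA occurs in the Tdg window and in 1.55% of all promoters. A match is a description of the letters only.

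Counts of 2 members, Tdg and Apex1, can hold a large part of reads that other genes share. The Tdg transcript has near-identical copies at 4 other places of mm9, on chromosomes 7, 10, 15 and 19, with 98.6% to 99.6% identity. One of them, Gm9855 (chr10:41773919-41775160, minus strand), held 97.1% to 99.6% of the Tdg count in every library. What is written as Tdg here therefore stands for reads of Tdg and its copies, which cannot be told apart. None of the other 7 members had such a copy (at least 500 aligned bases and 90% identity). Apex1 shares 877 exonic bases, or 61.7% of its exons, with Tmem55b on the opposite strand, the library kit does not mark strand, and the Tmem55b count was 72.2% to 103% of the Apex1 count. Apex1 values can thus hold Tmem55b reads, and the Tmem55b values are given beside them. Smaller overlaps with exons on the opposite strand also exist. The largest were 6.83% of the Tdg exons (with Glt8d2), 3.80% of Sin3a (2410133F24Rik) and 2.65% of Cxxc4 (Gm2078).

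Levels per kilobase divide the count of 1 RefSeq line by the length of all GENCODE vM1 exons of the gene joined, which can be longer. Per kilobase of exon, Apex1 was by far the most abundant member in WT cells at D0, with 291 CPM per kb ± 18.3 (SD, n = 3). Hcfc1 followed with 54.5 ± 3.54 CPM per kb (SD, n = 3) and Sin3a with 49.2 ± 2.59 (SD, n = 3), and the ranges of this pair overlapped. Ogt stood at 32.5 ± 0.480 CPM per kb (SD, n = 3). The glycosylases were far lower, with Smug1 at 7.81 ± 0.356, Neil1 at 4.12 ± 0.502 and Tdg at 3.93 ± 0.0703 CPM per kb (SD, n = 3 each). The ranges of Neil1 and Tdg overlapped, so that their order is not set by these libraries. For Tdg the joined exons hold 5374 bases and its longest coding transcript 3502, so its place among the glycosylases can depend on the length used. Cxxc4 was last at 0.0239 CPM per kb ± 0.000831 (SD, n = 3), from 3 counts in each library. At D6 the order of the WT means was Apex1, Sin3a, Hcfc1, Ogt, Smug1, Tdg, Neil1 and Cxxc4, with overlapping ranges of Sin3a and Hcfc1, at 37.0 to 44.8 and 38.9 to 39.6 CPM per kb.

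**Figure D1:**
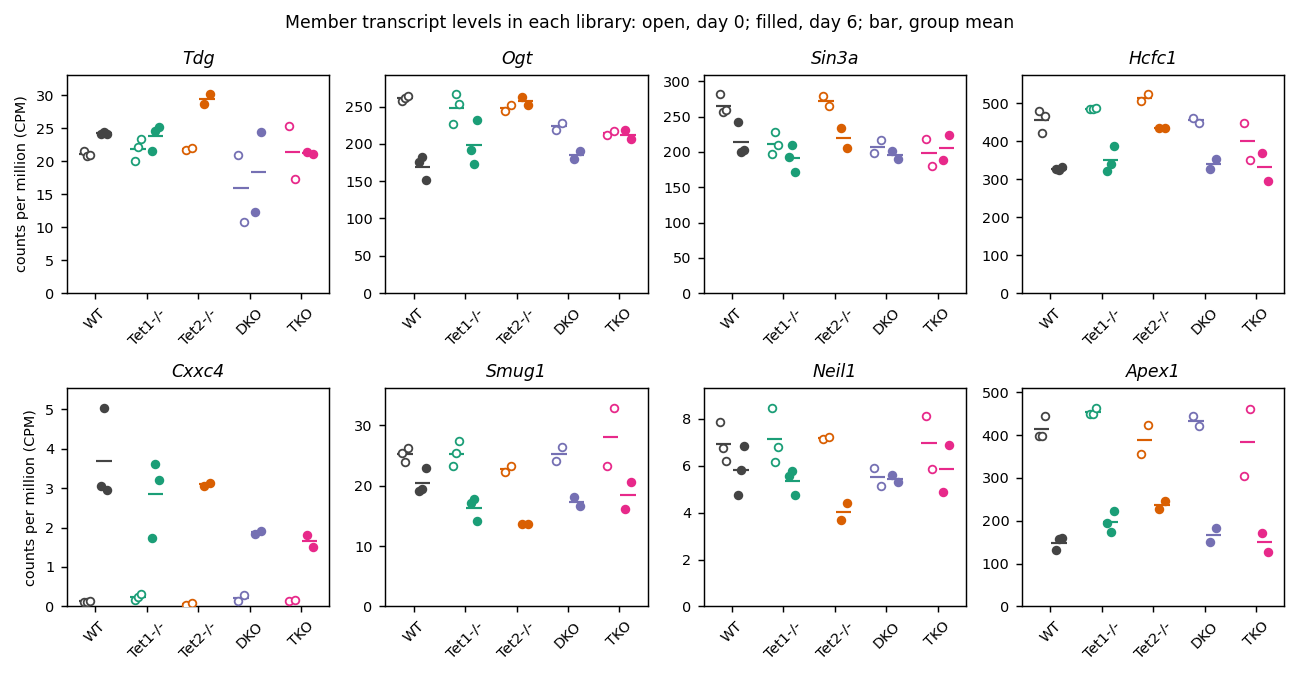
Level of each member in CPM (vertical axis, from 0) in every library of 5 genotypes (horizontal axis), with open points for D0, filled points for D6 and a bar at each group mean. Apex1 is lower and Cxxc4 higher at D6 in every genotype, the Ogt points of Tet2-/- do not fall at D6, and 1 DKO point on each day is low for Tdg, at 10.8 and 12.3 CPM.

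The first question was what 6 days without LIF did to the members in each genotype. In WT, 5 of 8 members passed the test (edgeR quasi-likelihood test, Benjamini-Hochberg adjusted p under 0.05 over all 15639 tested genes), 1 higher and 4 lower, where 66.3% of all tested genes passed, 33.5% higher and 32.8% lower. In Tet1-/-, 5 members passed, 1 higher and 4 lower (63.4% of all genes, 32.0% higher and 31.3% lower). In Tet2-/-, 4 passed, 1 higher and 3 lower (40.0% of all genes, 20.4% higher and 19.6% lower). In DKO, 4 passed, 1 higher and 3 lower (55.6% of all genes, 27.6% higher and 28.0% lower), and in TKO 3 passed, 1 higher and 2 lower (50.5% of all genes, 25.2% higher and 25.2% lower). These shares lie near the background, so that the number of members that passed is no feature of the members. The higher member was Cxxc4 in each genotype, which was under the count filter at D0 and was kept in this fit by its D6 counts. Changes of more than 2-fold were seen for Cxxc4 and Apex1 in WT, Tet1-/-, DKO and TKO and for Cxxc4 alone in Tet2-/-, where 34.0%, 31.1%, 29.2%, 25.4% and 19.1% of all genes in WT, Tet1-/-, DKO, TKO and Tet2-/- passed with such a change. The median log2 fold change of the members was -0.14 in TKO, -0.18 in DKO, -0.28 in Tet2-/-, -0.30 in WT and -0.37 in Tet1-/-, while the median of all genes lay between -0.01 and 0.01.

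**Figure D2:**
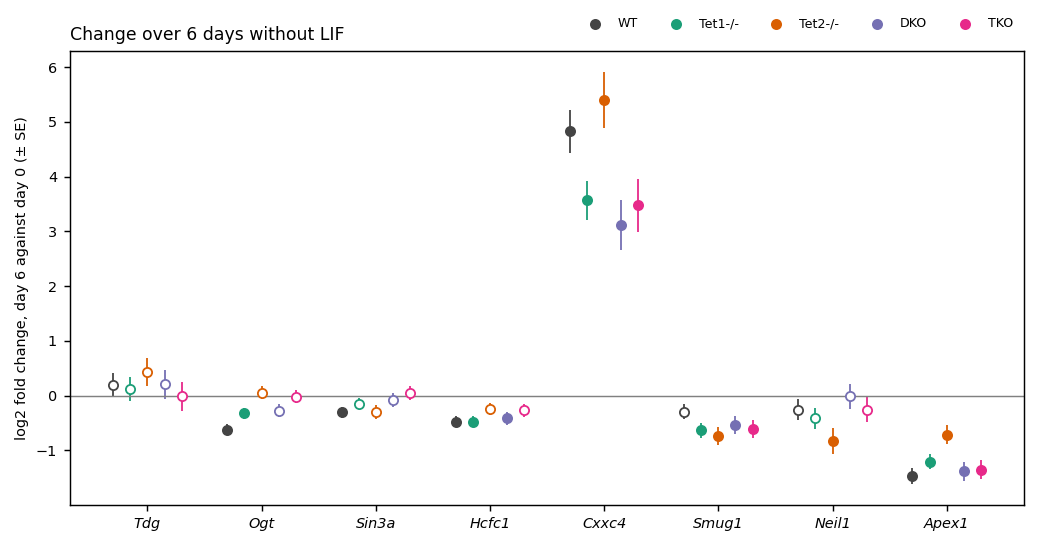
Log2 fold change from D0 to D6 (vertical axis, ± SE) of each member (horizontal axis) in 5 genotypes, with filled points for an adjusted p under 0.05. Cxxc4 lies between 3.12 and 5.40 and Apex1 between -1.47 and -0.71, and the other members lie between -0.83 and 0.43.

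Ogt RNA fell in WT, from 257, 262 and 265 CPM at D0 to 182, 175 and 151 CPM at D6. The WT groups did not overlap, and the log2 fold change was -0.62 ± 0.10 (SE, adjusted p = 1.70e-05). In Tet1-/-, Ogt was 226, 266 and 254 CPM at D0 and 191, 173 and 231 CPM at D6, a log2 fold change of -0.33 ± 0.10 (SE, adjusted p = 0.00656). These groups overlapped, and only 2 of the Tet1-/- clones were the same on both days. With clone as a block, the Tet1-/- value was -0.19 (adjusted p = 0.138), without the 2 clones of a single day it was -0.18 (adjusted p = 0.162), and with library totals as scaling it was -0.12 (adjusted p = 0.274). In Tet2-/-, Ogt was 244 and 251 CPM at D0 and 263 and 253 CPM at D6, a log2 fold change of 0.06 ± 0.12 (SE, adjusted p = 0.732). The Tet2-/- clones at D6 were thus near the level that WT held at D0. In DKO, Ogt was 219 and 229 CPM at D0 and 190 and 180 CPM at D6, with a log2 fold change of -0.27 ± 0.12 (SE, adjusted p = 0.0567; 0.0369 with clone as a block). In TKO it was 213 and 217 CPM at D0 and 218 and 206 CPM at D6, with a log2 fold change of -0.02 ± 0.12 (SE, adjusted p = 0.910). The TKO clones started lower than WT and their days overlapped.

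Hcfc1, whose product is cleaved by Ogt, fell in WT, Tet1-/- and DKO. WT clones held 478, 422 and 466 CPM at D0 and 325, 327 and 331 CPM at D6, a log2 fold change of -0.47 ± 0.10 (SE, adjusted p = 0.000280). The Tet1-/- change was of the same size (-0.47 ± 0.10, adjusted p = 0.000310), from 484, 484 and 487 to 321, 339 and 387 CPM. Neither genotype overlapped between days. DKO clones went from 460 and 448 CPM to 353 and 328 CPM (-0.42 ± 0.12, adjusted p = 0.00593), a call that was lost without DKO_5.11 at D0 or DKO_5.12 at D6 (adjusted p = 0.0507 and 0.0612), without both libraries of DKO_5.12 (0.112) and with library totals as scaling (-0.21, adjusted p = 0.167). Tet2-/- clones held the highest Hcfc1 level of the 5 genotypes on both days, with 506 and 523 CPM at D0 and 435 and 434 CPM at D6 (log2 fold change -0.24 ± 0.12, adjusted p = 0.106). TKO clones overlapped between days, with 447 and 351 CPM at D0 and 368 and 296 CPM at D6 (-0.27 ± 0.12, adjusted p = 0.0671). With single libraries left out, the TKO value ran from -0.44 to -0.08. With clone as a block, the TKO value was -0.26 (adjusted p = 0.0364).

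Sin3a changed little with the day. In WT it was 282, 256 and 259 CPM at D0 and 200, 242 and 202 CPM at D6, a log2 fold change of -0.31 ± 0.11 (SE, adjusted p = 0.0159). That call was lost without WT clone O4.1 at D0, or without the clone O4.1 or O4.13 library at D6 (adjusted p = 0.0630, 0.0797 and 0.0820). With library totals as scaling the WT value was -0.16 (adjusted p = 0.179). Tet2-/- clones held 279 and 265 CPM at D0 and 235 and 205 CPM at D6, with the same log2 fold change of -0.31 but a larger error (SE 0.13, adjusted p = 0.0667). The other 3 genotypes started lower and showed no change beyond the error. Their log2 fold changes were -0.15 in Tet1-/-, -0.08 in DKO and 0.05 in TKO, with adjusted p of 0.235, 0.604 and 0.770. Their levels over both days ran from 171 CPM in a Tet1-/- clone at D6 to 228 CPM in a Tet1-/- clone at D0.

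Cxxc4 was near the limit of counting at D0 and was measured clearly at D6. The D0 libraries of WT held 3, 3 and 3 counts, those of Tet1-/- 4, 6 and 7, those of Tet2-/- 1 and 3, those of DKO 3 and 6, and those of TKO 3 and 4. The D6 libraries of WT held 100, 84 and 93 counts, those of Tet1-/- 60, 101 and 102, those of Tet2-/- 106 and 90, those of DKO 58 and 68, and those of TKO 59 and 30. No D6 library overlapped with a D0 library. The ratio of summed counts per depth, D6 over D0, was 28.2 in WT (exact 95% interval 14.6 to 62.3), 11.9 in Tet1-/- (7.27 to 20.7) and 44.6 in Tet2-/- (17.1 to 165). It was 8.91 in DKO (4.55 to 19.9) and 11.7 in TKO (5.43 to 29.9), and these intervals cover counting error only. The fitted log2 fold changes were 5.40 ± 0.51 in Tet2-/-, 4.83 ± 0.39 in WT, 3.57 ± 0.36 in Tet1-/-, 3.48 ± 0.48 in TKO and 3.12 ± 0.46 in DKO (SE), and adjusted p ran from 8.55e-09 in WT to 1.79e-05 in DKO. A fold against so few counts, and its SE, depend on the prior count of the fit and are not sharp. Cxxc4 was under the count filter at D0 and entered this fit through its D6 counts only. Its adjusted p-values are thus no support apart from that filter, and the rise rests on the counts themselves. At D6 the level was 5.04, 3.05 and 2.96 CPM in WT, 1.74, 3.61 and 3.22 CPM in Tet1-/-, 3.05 and 3.14 CPM in Tet2-/-, 1.91 and 1.85 CPM in DKO, and 1.81 and 1.5 CPM in TKO.

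Among the glycosylases, Smug1 fell and Tdg did not. Smug1 went from 23.2, 25.4 and 27.4 CPM to 17.1, 17.8 and 14.1 CPM in Tet1-/- (log2 fold change -0.63 ± 0.14, adjusted p = 0.000578). It went from 22.3 and 23.3 CPM to 13.7 and 13.7 CPM in Tet2-/- (-0.73 ± 0.17, adjusted p = 0.00212). In DKO the levels were 24 and 26.3 CPM at D0 and 16.6 and 18 CPM at D6 (-0.54 ± 0.17, adjusted p = 0.0107; 0.0901 without DKO_5.12 at D0 and 0.0744 without DKO_5.11 at D6). The DKO value was -0.54 without both libraries of DKO_5.12 (adjusted p = 0.115) and -0.33 with library totals as scaling (adjusted p = 0.0904). The days did not overlap in any of these genotypes. In TKO the levels were 23.2 and 32.9 CPM at D0 and 16.1 and 20.7 CPM at D6 (-0.61 ± 0.17, adjusted p = 0.00555), and the call was lost without TKO_8.12 at D0 or TKO_8.4 at D6 (adjusted p = 0.126 and 0.0764). WT went the same way without overlap, from 25.4, 24 and 26.3 CPM to 19.4, 19.2 and 22.9 CPM, but missed the threshold (-0.30 ± 0.14, adjusted p = 0.0629). With clone as a block, the WT value was -0.30 (adjusted p = 0.0401).

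Tdg, the glycosylase of oxidised methylcytosine, had WT levels of 21.5, 20.8 and 20.9 CPM at D0 and 24.4, 24.2 and 24.2 CPM at D6. The WT groups did not overlap but the log2 fold change of 0.20 ± 0.21 (SE) was not past the test (adjusted p = 0.418). The fit shares 1 estimate of spread over all groups, the DKO clones included. Tet1-/- clones held 20.1 to 23.4 CPM at D0 and 21.5 to 25.2 CPM at D6. Tet2-/- clones held 21.7 and 22 CPM at D0 and 28.7 and 30.2 CPM at D6, the highest of the series (0.43 ± 0.26, adjusted p = 0.200). With clone as a block the Tet2-/- value was 0.43 (adjusted p = 0.0268), and without both libraries of DKO_5.12 it was 0.43 (adjusted p = 0.0372). DKO clones were far apart from each other on both days. In TKO the levels were 25.4 and 17.4 CPM at D0 and 21.4 and 21.1 CPM at D6, with a log2 fold change of -0.01 ± 0.26 (SE, adjusted p = 0.972).

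Neil1 was low in all libraries, between 3.69 and 8.48 CPM. It fell in Tet2-/-, from 7.13 and 7.25 CPM to 3.69 and 4.39 CPM, a log2 fold change of -0.83 ± 0.23 (SE, adjusted p = 0.00871). That call was lost without Tet2_KO_3.10 at D6 (adjusted p = 0.0967). In WT the levels were 7.88, 6.75 and 6.22 CPM at D0 and 5.80, 4.75 and 6.84 CPM at D6 (-0.26 ± 0.19, adjusted p = 0.236), with overlap. The log2 fold changes in the other genotypes were -0.41 ± 0.19 in Tet1-/- (adjusted p = 0.0651), -0.02 ± 0.23 in DKO (adjusted p = 0.960) and -0.26 ± 0.23 in TKO (adjusted p = 0.376). Whether Neil1 changed in these 4 genotypes was not detectable at this depth and spread.

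Apex1, the endonuclease that cuts at the abasic sites glycosylases leave, had the largest fall of the members in WT, Tet1-/-, DKO and TKO. In Tet2-/- Neil1 and Smug1 had the larger falls. WT clones went from 399, 398 and 444 CPM to 157, 131 and 159 CPM, a log2 fold change of -1.47 ± 0.14 (SE, adjusted p = 8.35e-08). Tet1-/- clones went from 449, 449 and 464 CPM to 194, 173 and 223 CPM (-1.21 ± 0.14, adjusted p = 9.80e-07). DKO clones went from 446 and 422 CPM to 184 and 150 CPM (-1.38 ± 0.18, adjusted p = 4.10e-06). In TKO the D0 clones differed from each other, with 304 and 462 CPM, and both were above the 171 and 128 CPM of D6 (-1.35 ± 0.18, adjusted p = 6.98e-06). The smallest Apex1 fall was that of Tet2-/-, from 356 and 423 CPM to 228 and 247 CPM (-0.71 ± 0.17, adjusted p = 0.00333; 0.0502 without Tet2_KO_3.11 at D0). The days did not overlap in any genotype. Tmem55b, which shares exonic bases with Apex1, fell by 1.17 on the log2 scale in WT, 1.03 in DKO, 1.03 in TKO, 0.97 in Tet1-/- and 0.61 in Tet2-/-, and each passed the test.

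The second comparison was each knockout with WT at D0. Cxxc4 was under the count filter on this day, so 7 members were tested. In Tet1-/- 0 members passed by edgeR (0.0138% of 14456 genes passed), 1 member had an unadjusted p under 0.05, and DESeq2 called 1, Sin3a. In Tet2-/- 0 members passed (9.80% of all genes), 0 had an unadjusted p under 0.05 and DESeq2 called 0. In DKO 0 passed (0.0484% of all genes), 2 had an unadjusted p under 0.05, and DESeq2 called 0. Of the 14456 genes, 1828 in Tet1-/-, 4218 in Tet2-/- and 2081 in DKO had an unadjusted p under 0.05. In TKO 1 member passed, in the lower direction (8.61% of all genes, 4.17% lower), and DESeq2 called 2. The TKO call was Sin3a, with 218 and 180 CPM where WT held 282, 256 and 259 CPM. Its log2 fold change was -0.42 ± 0.10 (SE, edgeR adjusted p = 0.0296), without overlap. Sin3a was at a like distance below WT in Tet1-/- (-0.35 ± 0.09, edgeR adjusted p = 0.156) and DKO (-0.37 ± 0.10, edgeR adjusted p = 0.150), again without overlap, and not in Tet2-/- (0.01 ± 0.10, edgeR adjusted p = 0.940). Sin3a in Tet1-/- and in DKO passed without either TKO library in the fit (adjusted p = 0.0212 to 0.0220). The TKO call was lost without any 1 of the 3 WT libraries and without TKO_8.12 (adjusted p = 0.0518 to 0.0761). Without TKO_8.4, 3 members passed, namely Sin3a, Hcfc1 and Smug1. The DESeq2 call beside it in TKO was Ogt, with 213 and 217 CPM against 257 to 265 CPM in WT (-0.28 ± 0.09, edgeR adjusted p = 0.0584).

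The third comparison was each knockout with WT at D6, where all 8 members were tested. In Tet2-/- 4 of 8 members passed, 3 higher and 1 lower, where 28.5% of 15435 genes passed, 12.9% higher and 15.6% lower. Ogt was 263 and 253 CPM in Tet2-/- and 151 to 182 CPM in WT, a log2 fold change of 0.59 ± 0.13 (SE, adjusted p = 0.0104). Hcfc1 was 435 and 434 CPM against 325 to 331 CPM in WT (0.39 ± 0.11, adjusted p = 0.0282). The Hcfc1 call was lost with library totals as scaling (0.34, adjusted p = 0.055) and without WT clone O4.1 or O4.13 (adjusted p = 0.0609 and 0.0667). Apex1 was 228 and 247 CPM against 131 to 159 CPM in WT (0.66 ± 0.16, adjusted p = 0.0136). None of these members overlapped with the WT libraries. Tmem55b was higher with Apex1 (0.51, adjusted p = 0.0159). Smug1 was lower, with 13.7 and 13.7 CPM against 19.2 to 22.9 CPM in WT (-0.60 ± 0.16, adjusted p = 0.0226). Neil1 was 3.69 and 4.39 CPM against 4.75 to 6.84 CPM in WT and missed the threshold (-0.54 ± 0.23, adjusted p = 0.0964). Tdg, Sin3a and Cxxc4 showed log2 differences of 0.26, 0.02 and -0.26, none past the test. With 1 Tet2-/- library left out, Tet2_KO_3.10 or Tet2_KO_3.11, 0 members passed, while the 4 log2 differences kept their direction. The count fell to 2 without WT clone O4.13.

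Markers of cell state also differed between Tet2-/- and WT at D6, where 12.9% of all genes were higher and 15.6% lower. At D6 the summed level of 5 general pluripotency genes (Pou5f1, Sox2, Sall4, Lin28a and Utf1) was 2486 to 2663 CPM in Tet2-/- and 1429 to 1906 CPM in WT, with 1 of 5 past the test (higher). Of 12 naive markers 3 were higher and 1 lower, with sums of 1480 to 1569 against 580 to 1254 CPM. Of 8 primed epiblast genes 2 were higher and 1 lower, with sums of 1708 to 1876 against 1177 to 1596 CPM. Over the 6 days 8 of these 8 genes rose in Tet2-/- and 7 in WT, where 20.4% and 33.5% of all genes rose. The summed level of 12 mesoderm genes was 83.1 to 118 CPM in Tet2-/- and 294 to 934 CPM in WT, with 9 of 12 lower, and that of 7 trophectoderm genes was 133 to 136 against 634 to 1386 CPM, with 6 of 7 lower. Endoderm sums (10 genes) were 35.1 to 41.9 against 97.9 to 304 CPM, with 5 lower, and neuroectoderm sums (8 genes) 218 to 223 against 120 to 143 CPM, with 3 higher. In single libraries up to 4 of the 10 endoderm genes in Tet2-/- and up to 3 of the 8 neuroectoderm genes in WT had 3 counts or fewer, which cannot be told apart from absence. The part of cell state in the differences of Ogt, Hcfc1, Apex1 and Smug1 was not tested.

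In Tet1-/-, DKO and TKO at D6, 0 members passed by edgeR, with 0% of all genes past the test in each of these genotypes. Members with an unadjusted p under 0.05 (edgeR) numbered 2, 1 and 2 of 8, where 1949, 2251 and 3629 of 15435 genes had one. DESeq2 called 0, 0 and 1 members. The DESeq2 call was Cxxc4 in TKO, with 1.81 and 1.5 CPM against 2.96 to 5.04 CPM in WT (-1.12 ± 0.36, edgeR adjusted p = 0.109). Cxxc4 in DKO was also below every WT library (-0.96 ± 0.35, edgeR adjusted p = 0.268). Ogt in TKO was 218 and 206 CPM, above every WT library (0.34 ± 0.13, edgeR adjusted p = 0.155). Apex1 in Tet1-/- was 173 to 223 CPM, also above every WT library (0.40 ± 0.14, edgeR adjusted p = 0.338), and Smug1 there was below (-0.33 ± 0.14, edgeR adjusted p = 0.381). Tdg in TKO and Smug1 in DKO were below every WT library as well (edgeR adjusted p = 0.654 and 0.509). The share of all genes that separate from WT in this way was not computed, so such separation is description only.

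**Figure D3:**
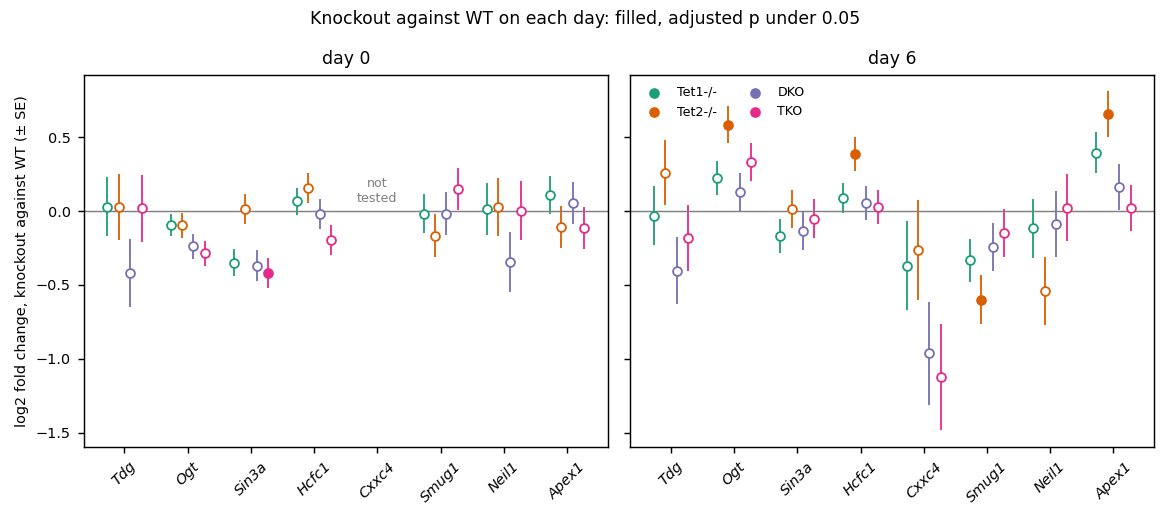
Log2 fold change of each member in 4 knockouts against WT (vertical axis, ± SE) at D0 and at D6, with filled points for an adjusted p under 0.05. At D0 the filled point is Sin3a in TKO at -0.42, and at D6 the 4 filled points are Ogt, Hcfc1, Smug1 and Apex1 in Tet2-/-, at 0.59, 0.39, -0.60 and 0.66.

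Whether the change over 6 days itself differed from that in WT was tested with the interaction term of the fit over all 24 libraries. In Tet2-/- 2 members passed, both higher (16.0% of all genes passed, 7.87% higher). Ogt, which fell by 0.62 on the log2 scale in WT and not in Tet2-/-, differed by 0.68 ± 0.15 (SE, adjusted p = 0.00872). Apex1 fell by 0.71 in Tet2-/- and by 1.47 in WT, a difference of 0.76 ± 0.22 (SE, adjusted p = 0.0294), and Tmem55b differed by 0.56 (adjusted p = 0.0465). Hcfc1 did not pass (0.23 ± 0.15, adjusted p = 0.303). In TKO 1 member passed, higher (5.97% of all genes, 2.79% higher). This was Ogt, with a difference of 0.61 ± 0.15 (SE, adjusted p = 0.0261; 0.0507 without both libraries of DKO_5.12). In Tet1-/- and DKO 0 members passed by edgeR (0% of all genes in both), and DESeq2 called 0 in both. In each, 2 of 8 members had an unadjusted p under 0.05, as had 1200 (Tet1-/-) and 1255 (DKO) of 15639 genes. The 2 members were Ogt, with differences of 0.30 ± 0.14 in Tet1-/- and 0.35 ± 0.15 in DKO (adjusted p = 0.626 and 0.576), and Cxxc4, with -1.26 ± 0.58 and -1.70 ± 0.67 (adjusted p = 0.628 and 0.530). The Cxxc4 differences rest on D0 libraries of 3 to 7 counts and on the prior count of the fit, and Cxxc4 passed the filter through D6 only. All 4 tests share the WT libraries. Without Tet2_KO_3.10 at D0, Apex1 and Ogt were no longer called in Tet2-/- (adjusted p = 0.147 and 0.0521), and without WT clone O4.13 at D0 or either Tet2-/- library of D6 Apex1 was not (0.0655, 0.0695 and 0.105). The Ogt call in TKO did not hold when WT clone O4.13 was left out on either day, WT clone O4.2 at D0, or TKO_8.4 on either day (adjusted p = 0.0516 to 0.0750).

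Tdg differed between the clones of DKO. Clone DKO_5.11 held 21.0 CPM at D0 and 24.4 CPM at D6, close to the WT levels. Clone DKO_5.12 held 10.8 CPM (219 counts) at D0 and 12.3 CPM (453 counts) at D6. The log2 ratio of the clones was -0.96 at D0 and -0.98 at D6 (pseudocount 0.1 CPM), from separate libraries on the 2 days. Of 12193 genes with a mean count of at least 50, 8 had a ratio below -0.9 on both days. The 20 nearest such genes around Tdg, up to 1.90 Mb away, had ratios of -0.22 to 0.42 at D0 and -0.35 to 0.36 at D6, with medians of -0.02 and -0.02. Within this window the lower level was seen for Tdg alone. Gm9855 moved with Tdg, as it shares its reads, and the 20 genes around it had medians of -0.03 and 0.09. The largest clone difference of another member in DKO at D6 was that of Apex1, with a log2 ratio of -0.29 without a pseudocount. At D0 the ratio of Cxxc4 was 1.15, from 3 and 6 counts, and that of Neil1 was -0.21. Between days in DKO, Tdg passed the test when DKO_5.11 was left out at D0 (0.79, adjusted p = 0.0336), which sets DKO_5.12 at D0 against both clones at D6.

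**Figure D4:**
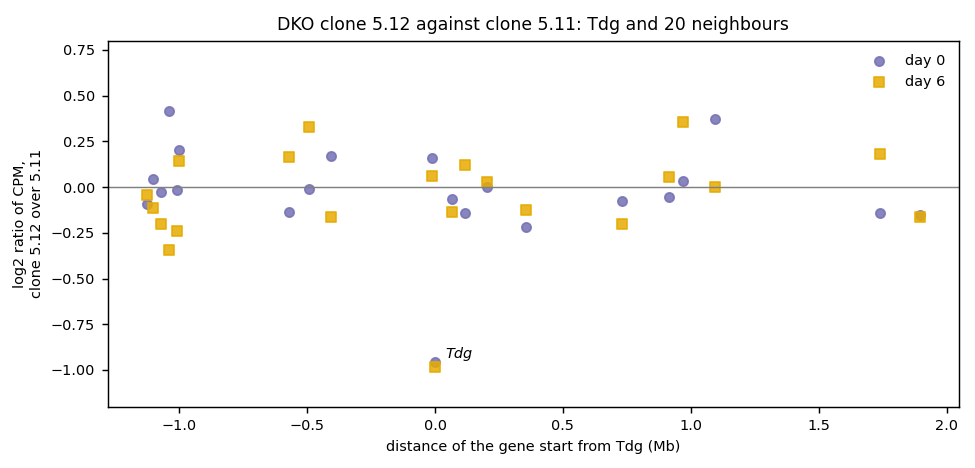
Log2 ratio of CPM of DKO_5.12 over DKO_5.11 (vertical axis) for Tdg and its 20 nearest genes on chromosome 10, by distance from Tdg in Mb (horizontal axis), with circles for D0 and squares for D6. Tdg lies at -0.96 and -0.98 and all neighbours between -0.35 and 0.42.

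The other genes of each pathway were followed with lists that include the members. Their counts in WT over the 6 days stand against 33.5% of all genes higher and 32.8% lower, and those in Tet2-/- against WT at D6 stand against 12.9% higher and 15.6% lower. Among 11 DNA glycosylases, 1 rose and 3 fell in WT over the 6 days (median log2 fold change -0.06, all genes 0.01), where 66.3% of all genes passed. Ung, the main uracil glycosylase, went from 133 to 53.4 CPM (-1.32 ± 0.13, adjusted p = 7.53e-08), and Ogg1, which removes oxidised guanine, from 16.5 to 8.43 CPM (-0.97 ± 0.19, adjusted p = 0.000200). Neil3, a relative of Neil1, rose from 3.53 to 7.64 CPM (1.11 ± 0.22, adjusted p = 0.000193). In Tet2-/- against WT at D6, 1 glycosylase was higher and 1 lower, Ung (0.67 ± 0.15, adjusted p = 0.0120) and Smug1, so that this pair of uracil glycosylases differed from WT in opposite directions. Ung was also the glycosylase whose change over the 6 days differed from WT in Tet2-/- (0.61 ± 0.20, adjusted p = 0.0434), and Ogg1 was higher in Tet2-/- at D0 (0.62 ± 0.17, adjusted p = 0.0419).

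Of 16 genes that act after the glycosylase, 9 fell and 0 rose in WT (median -0.26, all genes 0.01), where 66.3% of all genes passed and 32.8% were lower. Apex1 had the largest fall of those named here. Pcna, the sliding clamp of DNA polymerases, went from 386 to 165 CPM (-1.22 ± 0.12, adjusted p = 1.13e-07), the flap nuclease gene Fen1 from 171 to 77.8 CPM (-1.14 ± 0.11, adjusted p = 7.81e-08) and the polymerase gene Pole from 148 to 78.2 CPM (-0.91 ± 0.11, adjusted p = 1.43e-06). In Tet2-/- against WT at D6, 6 of 16 were higher and 1 lower (median 0.29, all genes -0.03), where 12.9% of all genes were higher and 15.6% lower. Beside Apex1 these included Pole (0.77 ± 0.13, adjusted p = 0.00556), Pcna (0.77 ± 0.16, adjusted p = 0.00905) and Fen1 (0.51 ± 0.15, adjusted p = 0.0254). Most of these products also serve DNA replication. The change over the 6 days differed from WT in Tet2-/- for 5 of 16, 4 higher and 1 lower, where 16.0% of all genes passed and 7.87% were higher. Beside Apex1 the higher ones were Pcna (0.88 ± 0.19, adjusted p = 0.00772), Hmgb1 (0.78 ± 0.20, adjusted p = 0.0153) and Fen1 (0.53 ± 0.17, adjusted p = 0.0448). The lower one was Lig1, a DNA ligase gene named after its value was seen (-0.52 ± 0.13, adjusted p = 0.0164). At D0, 2 of 16 were higher in TKO (Tdp1 and Polb), where 8.61% of all genes passed, and Pold1 was higher in Tet2-/- (0.50 ± 0.13, adjusted p = 0.0318).

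Of 12 O-GlcNAc and HCF1 partners, 9 fell and 1 rose in WT (median -0.48, all genes 0.01), where 32.8% of all genes were lower and 33.5% higher. Ash2l, Rbbp5 and Wdr5, shared subunits of the histone methyltransferases that HCF1 docks, fell by 1.21, 1.01 and 0.80 on the log2 scale (SE 0.16, 0.10 and 0.12). In Tet2-/- against WT at D6, 4 of 12 were higher (median 0.14), namely Ogt, Hcfc1, Ash2l (0.79 ± 0.18, adjusted p = 0.0111) and Rbbp5 (0.34 ± 0.10, adjusted p = 0.0332). Of 18 genes of the SIN3 complex, 9 fell and 2 rose in WT (median -0.26), near the 66.3% of all genes that passed. The falls were led by Sap30 (-1.18 ± 0.14), Brms1 (-1.01 ± 0.16) and the deacetylase gene Hdac1 (-0.82 ± 0.12). In Tet2-/- against WT at D6, 4 of 18 were higher and 1 lower (median 0.18). Sap30 was higher (115 against 48.3 CPM, 1.24 ± 0.18, adjusted p = 0.00414), as was Fam60a (0.87 ± 0.24, adjusted p = 0.0237), while Rbbp7 was lower (-0.74 ± 0.10, adjusted p = 0.00410). Sin3a, the scaffold, was not among them. In TKO at D0, where Sin3a was lower, 1 other SIN3 gene passed, Sap18, which was higher (0.40 ± 0.11, adjusted p = 0.0478). In Tet2-/- at D0 it was Fam60a, also higher (0.50 ± 0.14, adjusted p = 0.0474). The change over the 6 days differed from WT for 3 of 18 in Tet2-/-, where 16.0% of all genes passed. These were Sap30 (1.1 ± 0.22, adjusted p = 0.00589), Brms1l (0.59 ± 0.19, adjusted p = 0.0401) and Rbbp7 (-0.55 ± 0.16, adjusted p = 0.0293). In TKO it differed for 2 of 18, Arid4a (0.66 ± 0.16, adjusted p = 0.0245) and Sap18 (-0.52 ± 0.15, adjusted p = 0.0459), where 5.97% of all genes passed.

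Of 12 genes for CXXC domain proteins, 5 rose and 3 fell in WT (median 0.26), near the 66.3% of all genes that passed. Tet3 rose from 6.35 to 17.8 CPM (1.49 ± 0.20, adjusted p = 2.73e-06) and Kmt2a from 47.9 to 93.4 CPM (0.96 ± 0.13, adjusted p = 4.31e-06), while Tet1 fell from 340 to 116 CPM (-1.55 ± 0.66, adjusted p = 0.0457). In Tet2-/- against WT at D6, 2 were higher, Kdm2b (0.33 ± 0.11, adjusted p = 0.0400) and Dnmt1 (0.31 ± 0.10, adjusted p = 0.0428), and 1 lower, Kmt2a (-0.46 ± 0.14, adjusted p = 0.0354). At D0, Kmt2b was higher in Tet2-/- (0.44 ± 0.12, adjusted p = 0.0377) and Tet3 lower in TKO (-0.81 ± 0.23, adjusted p = 0.0482). The change over the 6 days differed from WT in TKO for Fbxl19 (-0.70 ± 0.16, adjusted p = 0.0179) and Cxxc5 (-0.58 ± 0.16, adjusted p = 0.0426).

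**Figure D5:**
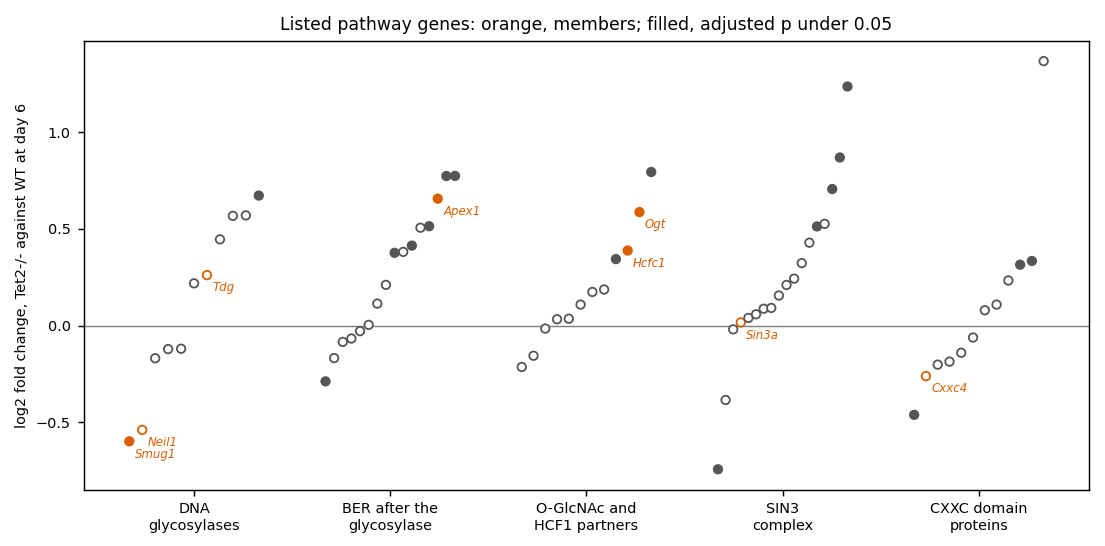
Log2 fold change of Tet2-/- against WT at D6 (vertical axis) for the genes of 5 pathway lists (horizontal axis, sorted by value within a list), with members in orange and filled points for an adjusted p under 0.05. Apex1, Ogt and Hcfc1 lie among the filled points above 0, Smug1 is filled at -0.60, and Sin3a, Tdg, Neil1 and Cxxc4 are open.

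The genes most like each member were ranked by Pearson's r of log2 CPM (pseudocount 1), centred on each day, over the 24 libraries, which share depth and clone. For Sin3a they were Aldh6a1 (r = 0.91), Crebrf (0.86) and Aldh1l2 (0.85). For Hcfc1 they were Zbtb43, Chtf18 and LOC101056043 (r = 0.91 to 0.92), and for Ogt Slc25a5, Ltv1 and Pola1 (0.86 to 0.87). Smug1 was most like Nit1, Mfsd11 and Meox1 (0.87 to 0.91), Neil1 most like Tldc1, Fuk and Arsa (0.82 to 0.91), and Cxxc4 most like Sgip1, Sez6l2 and Sall4 (0.80 to 0.84). For Apex1 the first was Tmem55b (0.97), followed by Uros and Rbm45 (0.94 and 0.94), and for Tdg the first was Gm9855, beyond which no gene exceeded 0.70. Among the members, Ogt and Hcfc1 were the most alike (r = 0.65), and Hcfc1 and Smug1 the most opposed (r = -0.81).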

How the data were processed

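RNA-seq of mouse ESC clones was analysed for 24 libraries, and no library was left out. The authors isolated polyadenylated RNA, mapped paired-end reads to mm9 with STAR 2.5.1 and deposited counts per RefSeq transcript line as whole numbers, without normalization or pooling. The strand setting of the counting is not given in the sources used here, the library kit does not mark strand, and the counter is named as featureCounts in one place and HTSeq in another. The deposited tables hold 31928 lines for 22926 symbols and 0 lines of ERCC spike-in RNA, so the spike-in scaling could not be redone. Of several lines for a symbol, the first was taken.

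Tests were run with edgeR 4.0.16 on R 4.3.3 (limma 3.58.1), with DESeq2 1.42.0 as an alternative, and genes were annotated with Python. Scaling was by TMM, and filterByExpr kept genes at a minimum count of 10. Quasi-likelihood models, each group having its own coefficient, were fitted to all 24 libraries (15639 genes), to D0 (14456) and to D6 (15435). The test was passed at a Benjamini-Hochberg adjusted p under 0.05 over all tested genes, and a 2-fold criterion is given beside it. The SE of a log2 fold change was derived from the test, as its absolute value over the square root of the F statistic, and is approximate. The code was tested on simulated data with known changes. Clone names in the labels pair 11 clones across days. The deviations of the same clone on both days correlated with r of 0.0813 to 0.193, over 0.1 in 10 of 11, and the fit with clone as a block was an alternative. A count of 3 is taken as the limit of a count of 0, and count intervals are exact and cover counting error only.

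The genes named are all members, up to 3 of each pathway list with the largest change among those past the test in WT between days and in each knockout comparison, the edited Tet genes, and the 3 genes most like each member. One gene that this rule names is not reported here. Members, lists and alternatives were chosen with earlier results of these data known. Alternatives were other scaling factors (DESeq2 size factors or library totals), no count filter, DESeq2's Wald test, the line with the most counts per symbol, the replicate blocks, each library left out in turn and, chosen after seeing the data, DKO_5.12 left out and the Tet1-/- clones of a single day left out.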

Additional observations from a re-analysis of the deposited data

Results flagged for a closer look

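The change over 6 days without LIF differed between a knockout and WT for 2 members by the interaction term of edgeR's fit. Ogt differed from WT by 0.68 on the log2 scale in Tet2-/- (adjusted p = 0.00872) and by 0.61 in TKO (adjusted p = 0.0261). Apex1 differed from WT by 0.76 in Tet2-/- (adjusted p = 0.0294), and Tmem55b, which shares exonic bases with it, by 0.56. Ogt was lower at D6 than at D0 in 3 of 3 WT clones, in 0 of 2 Tet2-/- clones and in 1 of 2 TKO clones, and Apex1 was lower in every clone of WT and Tet2-/-. Groups of 2 and 3 libraries are too small for a test of single outlying libraries.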

How the results depend on the processing

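Of the 29 member values past the test, none changed direction under any alternative run, and their call was kept in 809 of 858 recomputations and lost in 49. Most of these recomputations left out 1 library, often a library of neither group compared. The share kept therefore says little about how firm a single call is. Library totals in place of TMM raised every D6 against D0 log2 change by 0.141 to 0.209. The count of members past the test in DKO between days, 4, was 2 with library totals and 2 without DKO_5.12. In TKO against WT at D0 the count of 1 was 2 with library totals (Ogt added) and 2 with DESeq2. In Tet1-/- at D0 and in TKO at D6 the count of 0 was 1 with DESeq2. In TKO the interaction count of 1 was 0 without DKO_5.12. Clone as a replicate block, a true pairing, moved no count by over 1.5 times, and the 5 calls it changed stand in the report. Replicate numbers within a day name different clones (r of like numbers -0.07 to 0.31 at D0 and -0.38 to 0.31 at D6, with 9 and 3 of 12 libraries closest to their own number). With these numbers as a replicate block the TKO count at D0 was 0, with Sin3a at -0.43 (adjusted p = 0.0509). Leaving out 1 library gave counts of 0 to 1 in Tet1-/-, 0 to 1 in DKO and 0 to 3 in TKO against WT at D0, of 0 to 4 in Tet2-/- at D6, and of 0 to 2 (Tet2-/-) and 0 to 1 (TKO) for the interaction. Between days some values near 0 that were not past the test turned sign: Sin3a with library totals was 0.0604 in Tet1-/- and 0.13 in DKO, Neil1 in DKO was 0.0313 with DESeq2 size factors, 0.19 with library totals, 0.0167 without a count filter and 0.0309 with DESeq2, Ogt in TKO was 0.0036, 0.16 and 0.0038 with DESeq2 size factors, library totals and DESeq2, and Tdg in TKO was 0.0095, 0.16 and 0.0095 with the same settings and 0.0078 with the clone block. With single libraries left out, Neil1 in DKO ran from -0.0877 to 0.1175, Sin3a in DKO from -0.1278 to 0.0079, Tdg in DKO from -0.37 to 0.79, Tdg in TKO from -0.27 to 0.29, Sin3a in TKO from -0.0864 to 0.1962 and Ogt in TKO from -0.0625 to 0.0412. Where a library was left out of a group of 2, the lone clone was assumed to vary like the other groups. Cxxc4 at D0, with 1 to 7 counts a library, is limited by depth.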
